A study of Bos taurus with 6 samples.

Results

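The ZNF genes encode zinc finger proteins, and here they are the genes whose array symbol is ZNF followed by a number and at most 1 further letter. By this rule 257 gene symbols on 352 probes were members, of 15229 symbols and 43794 probes on the array. The name fixes the membership, not a function, so the group holds mostly DNA-binding C2H2 proteins together with some that bind RNA or ribosomes. Another current symbol was found in RefSeq for 13 members, such as ZBTB21 (ZNF295 on the array) and CHAMP1 (ZNF828), and these stayed in the group.

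Cumulus cells, the somatic cells that enclose the oocyte, came from cumulus-oocyte complexes of Holstein cows. The 0 h group was cells stripped mechanically before maturation, and the 6 h group was cells after 6 h of in vitro maturation at 38.5 °C in TCM-199, to which 10% fetal serum, estradiol (1 µg/ml), the antibiotic gentamicin and pyruvate (0.33 mM) were added. There were 3 biological replicates, and in each one the 0 h and 6 h RNA were hybridised together on 2 arrays of opposite dye labelling, 6 arrays in all. The ovaries came from a slaughterhouse, the labels do not state the number of animals per replicate, and the RNA was amplified linearly before labelling.

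A C2H2 zinc finger is a short fold held by a zinc ion, and a row of such fingers lets a protein read a stretch of DNA. Many mammalian ZNF proteins carry a KRAB domain, which recruits TRIM28 and with it SETDB1, HP1 proteins and the NuRD complex, and so silences chromatin, often at transposable elements. KRAB zinc finger genes lie in tandem clusters on the chromosomes and are usually expressed at low levels.

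Some facts of the arrays bear on all that follows. Median raw intensity per array was 208 to 264 in Cy3 and 169 to 212 in Cy5, and the number of arrays limits the precision. Probes of ZNF genes exceeded background in 59.1% to 84.1% of cases at 0 h and in 49.1% to 83.2% at 6 h, depending on the array. The lowest and the highest 6 h share came from the dye swap arrays of replicate 1. Over all probes the shares were 51.2% to 84.3% at 0 h and 41.2% to 79.9% at 6 h. Of 15 granulosa and cumulus markers, 14 were tested, 7 fell and none rose, with a median log2 ratio of -0.74, and among those that fell were NR5A2, FSHR and CYP19A1. AMHR2, also among the 7, passed the background filter only through 0 h. Replicate 3 stood apart in oocyte markers: the log2 of their summed level over 12 tested markers of 20 was 10.79, 10.79 and 13.89 at 0 h in replicates 1 to 3, against 12.50, 11.52 and 12.71 at 6 h. None of these 12 markers passed the test, and 8 of them passed the background filter only through 6 h. Of 11 theca and stroma markers 6 were tested and 4 rose (PDGFRA, LUM, TCF21 and DCN), and the log2 of their summed level was 13.88 to 14.62 at 0 h and 14.57 to 14.95 at 6 h. DCN passed the filter only through 6 h, with 2 arrays above background at 0 h. Of 13 immune and endothelial markers 4 were tested and 1 rose, CD68, and the log2 of their summed level was 9.47 to 10.76 at 0 h and 9.71 to 11.22 at 6 h. The part of these other cell types in the ZNF values was not tested. In RNA from a bulk sample, fewer cells of a type and less RNA per cell cannot be told apart.

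Of the 257 members, 164 were tested, which means that a probe exceeded background on every array for at least 1 of the time points. Of the other 93 genes, 12 were above background on no array and 81 on some. Their 100 probes, taken as values without a test, had log2 ratios from -0.29 to 0.49. Of the 164 tested members 19 passed only through 0 h and 5 only through 6 h, against 1161 and 398 of all 9217 genes tested. Of those 19, 3 were called lower, and of those 5, 1 was called higher.

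Over 6 h, more ZNF transcripts fell than rose. By limma's moderated test with Benjamini-Hochberg adjustment over 9217 genes at a threshold of 0.05, 37 of 164 tested members were called lower (22.6%) and 16 were called higher (9.76%), while 111 were not called. Over all genes tested, 18.2% were called lower and 17.4% higher, and 35.6% were called in either direction. The share called among members, 32.3%, was near that background, and the split between the directions was not even. The counts depended on replicate 2, and so did those of all genes. Without it 14 members were called lower and 4 higher (8.38% and 2.4%), against 5.87% and 6.46% of all genes. Without replicate 3 there were 25 and 9 (15.2% and 5.45%), against 12.6% and 12.4%. Without replicate 1 there were 36 and 12 (19.1% and 6.38%), against 15.8% and 14.9%. At an unadjusted p under 0.05 there were 47 lower and 21 higher, and the share of all genes at that threshold was not counted.

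In size the changes were somewhat smaller than those of all tested genes. These comparisons of size were not matched for brightness, and the members were dimmer. The median log2 intensity was 8.65 for members, against 9.27 for all other tested genes. The median absolute log2 ratio, 6 h over 0 h, was 0.26 for members and 0.30 for all genes, and among called genes 0.69 and 0.78. The 164 log2 ratios ran from -1.86 to 1.65. Those of all genes ran from -3.71 to 6.60, but a range widens with the number of genes. The middle 50% of the members lay between -0.39 and 0.13, and that of all other tested genes between -0.32 and 0.29. Of the 164 tested members 9 were called lower and 4 higher by at least 2-fold, against 493 (5.35%) and 577 (6.26%) of 9217 genes tested. The share that fell this far was near that of all genes, and the share that rose was smaller. The median over called members was -0.69 for those that fell and 0.61 for those that rose.

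The median log2 ratio of the members was -0.08, and in replicates 1, 2 and 3 it was -0.06, -0.11 and -0.11. For all other tested genes the median was -0.02. Below 0 lay 91, 106 and 100 of the 164 members in the 3 replicates, and 64 were below 0 in every replicate while 34 were above 0 in every replicate. On all arrays used, 62 members (37.8%) kept 1 sign, against 43.3% of all genes. The levels at 0 h and 6 h did not overlap for 58 members (35.4%), against 42.8% of all genes, and both shares were below the background. Neither share was matched for brightness.

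**Figure D1:**
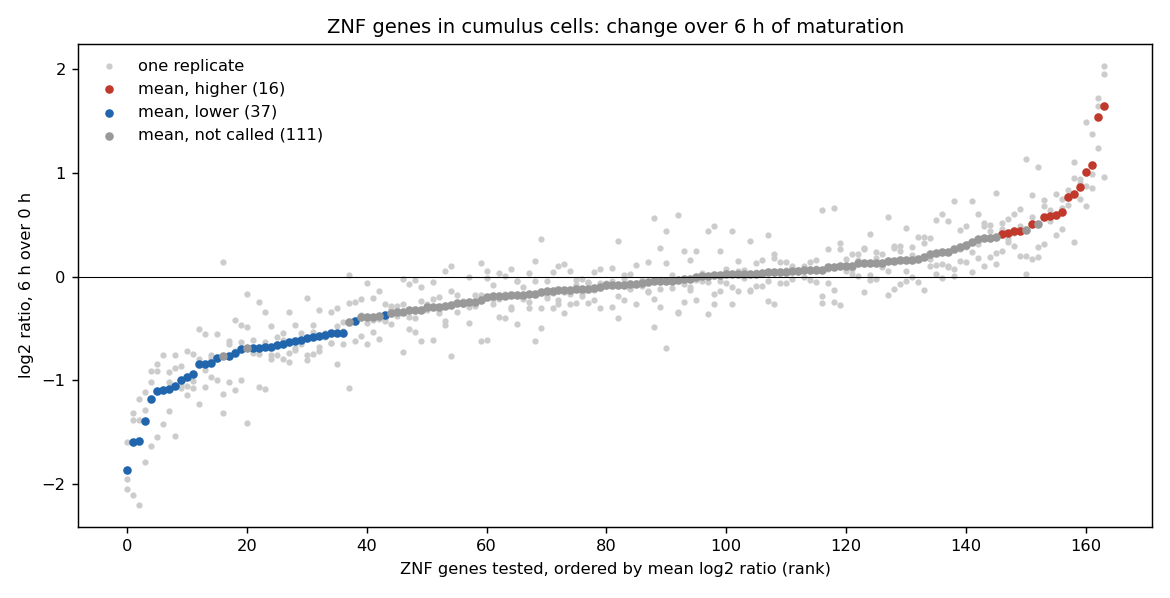
The log2 ratio of 6 h over 0 h (y axis) of the 164 tested ZNF genes in order of their mean (x axis), with each replicate in pale grey and the mean in colour. The 37 genes called lower reach -1.86 and the 16 called higher reach 1.65.

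The plot of ranked ratios shows more called genes below 0 than above it. Agreement between measurements of the members was described by Pearson's r across the 164 genes, which share arrays and are not independent. It was 0.78, 0.78 and 0.83 between the arrays of a dye swap, and 0.77, 0.72 and 0.86 between replicates 1 and 2, 1 and 3, and 2 and 3.

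Brightness was considered because it affects which genes can pass the test. All tested genes were divided into 5 bands of equal number by mean log2 intensity, and 26, 59, 48, 25 and 6 members fell in the bands from dimmest to brightest. In the first 3 bands 11.5%, 27.1% and 25% of members were called lower, against 8.53%, 17% and 22.7% of the other genes. In the same bands 0%, 6.78% and 6.25% of members were called higher, against 6.66%, 17.5% and 20%. The fourth band went the other way for rising genes: 7 of 25 members were called higher (28%) against 21.8% of the others, and 6 were called lower (24%) against 23.2%. In the brightest band 2 of 6 members were higher and 0 lower. With the other genes weighted to the members' bands, 18.4% were lower and 17.3% higher.

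**Figure D2:**
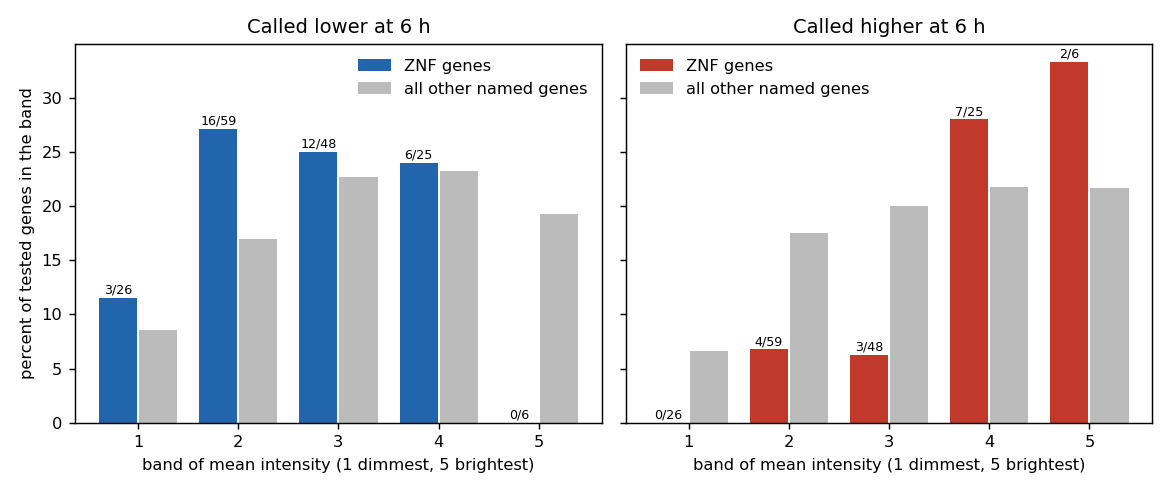
Percent of tested genes called lower (left) and called higher (right) in each of 5 bands of mean intensity, for ZNF genes in colour with their counts and for all other named genes in grey. ZNF genes called higher are few in bands 1 to 3 (0, 4 and 3 genes) and more frequent in bands 4 and 5 (7 and 2 genes).

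The bars by intensity band show that the shortfall of rising members lay in the dim and middle bands. No test was made of this pattern.

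ZNF189, a KRAB zinc finger gene, fell most. Its normalised level on the log2 scale was 11.78, 12.02 and 12.01 at 0 h and 9.84, 9.97 and 10.41 at 6 h in replicates 1, 2 and 3. All 6 h values lay below all 0 h values, a fall of 3.64-fold (log2 ratio -1.86 ± 0.24, SD, n = 3 replicates; limma adjusted p = 0.0013). Its other tested probe gave -1.51.

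ZNF32, a small C2H2 protein, stood next. Its levels were 11.18, 11.55 and 11.33 at 0 h and 9.80, 9.45 and 10.02 at 6 h, without overlap, a fall of 3.03-fold (log2 ratio -1.60 ± 0.44, SD, n = 3; limma adjusted p = 0.0033). Its direct neighbour on the chromosome, ZNF239, had a log2 ratio of 0.29 and was not called.

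ZNF358, also of the C2H2 class, had levels of 10.39, 10.58 and 10.35 at 0 h and of 9.11, 8.80 and 9.24 at 6 h. The groups were apart, and the fall was 2.63-fold (log2 ratio -1.40 ± 0.35, SD, n = 3; limma adjusted p = 0.0033). ZNF75D, which carries a SCAN and a KRAB domain, had levels of 11.40, 11.58 and 11.25 at 0 h and of 10.38, 9.95 and 10.34 at 6 h, again without overlap, with a log2 ratio of -1.18. ZNF672 and ZNF572, for which no role is given here, had log2 ratios of -1.08 ± 0.20 and -0.99 ± 0.12 (SD, n = 3).

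Among members that rose, ZNF74 had levels of 9.75, 9.43 and 8.98 at 0 h and of 10.60, 10.42 and 10.35 at 6 h. It is a KRAB zinc finger gene, its groups did not overlap, and the rise was 2.10-fold (log2 ratio 1.07 ± 0.27, SD, n = 3; limma adjusted p = 0.0044). ZNF664 was dim at 0 h, at 7.36, 7.42 and 7.42, and reached 7.69, 8.37 and 8.52 at 6 h (log2 ratio 0.80 ± 0.41, SD, n = 3). ZNF664 was not above background on every array at 0 h, and its call was lost without replicate 2 or without replicate 3.

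ZNF33B rose by 0.77 ± 0.07 (SD, n = 3) on the log2 scale. Its 3 replicates rose alike, at 0.78, 0.83 and 0.69, but its levels overlapped because the replicates differed in level: 10.33, 11.31 and 10.98 at 0 h and 11.11, 12.14 and 11.67 at 6 h. ZNF317 (0.58 ± 0.23) and ZNF354A (0.62 ± 0.15) rose less, and the other probe of ZNF354A read -0.17 and was not called. ZNF3 rose by 0.44 ± 0.15 on its brightest probe, and its other probes read 0.20 and -0.03. The calls of ZNF33B and ZNF354A were lost without replicate 2, that of ZNF317 without replicate 1 or without replicate 2, and that of ZNF3 without any 1 of the replicates.

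**Figure D3:**
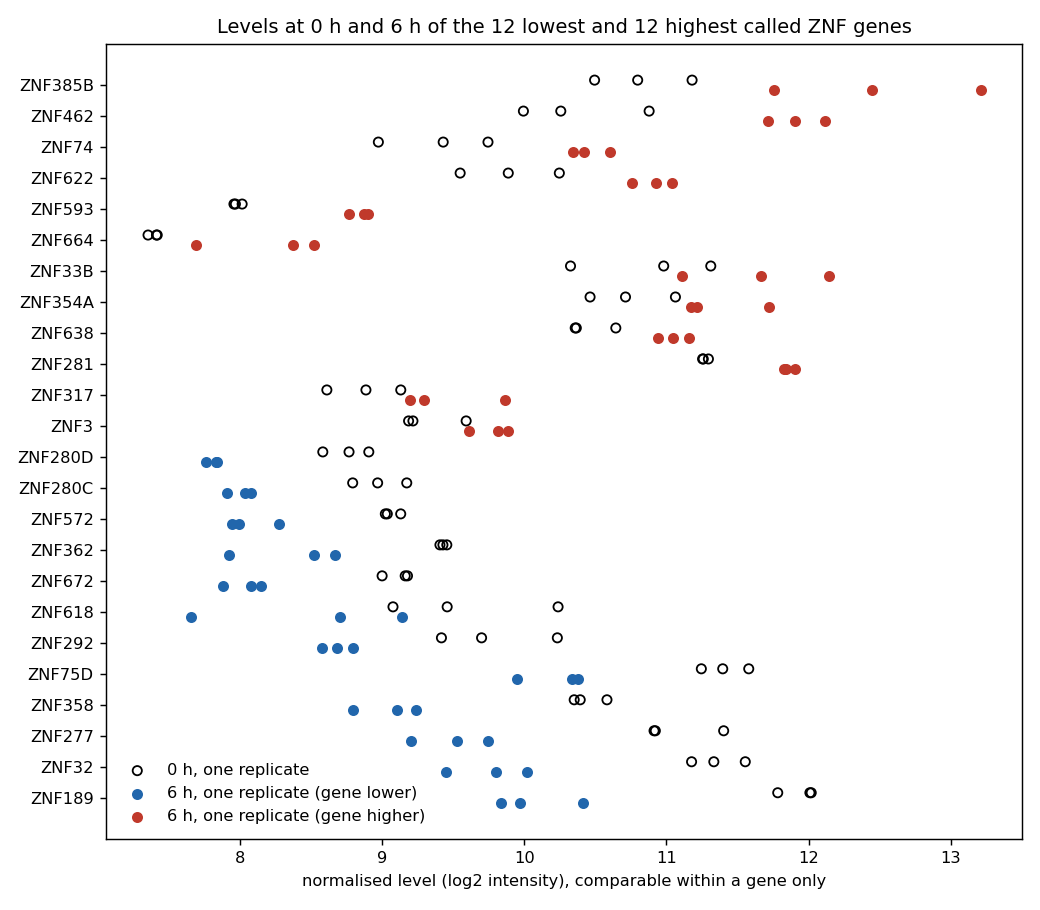
Normalised level (log2 intensity, x axis) of each replicate at 0 h (open) and 6 h (filled) for the 12 ZNF genes with the lowest and the 12 with the highest log2 ratio among those called with 1 sign on all arrays. The 0 h and 6 h points separate for all of them except ZNF618 and ZNF33B.

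In the plot of levels the distance between open and filled points of a gene is its change, and positions of different genes are not comparable because each probe has its own brightness.

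Members that act on RNA, ribosomes or proteins were called in both directions. Of 18 listed genes 12 were on the array and 11 were tested, of which 4 rose (36.4%) and 3 fell (27.3%), against 17.4% and 18.2% of all genes tested, with a median log2 ratio of -0.18. The list was chosen with earlier results of these data known, so no p-value is given for it.

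ZNF593, whose yeast counterpart Bud20 helps to export large-subunit precursors, had levels of 8.02, 7.97 and 7.96 at 0 h and 8.77, 8.87 and 8.90 at 6 h. The replicates were close and the groups were apart (log2 ratio 0.86 ± 0.10, SD, n = 3; limma adjusted p = 0.0041). ZNF622, the counterpart of the yeast large-subunit maturation factor Rei1, had levels of 9.55, 9.89 and 10.25 at 0 h and of 11.04, 10.76 and 10.92 at 6 h. It rose 2.02-fold without overlap (log2 ratio 1.01 ± 0.42, SD, n = 3; limma adjusted p = 0.011), and its call was lost without replicate 2.

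ZNF385B, a protein with matrin-type zinc fingers, rose most of all members. Its levels were 10.80, 11.18 and 10.50 at 0 h and 11.76, 13.21 and 12.45 at 6 h. Every 6 h value lay above every 0 h value, and replicate 1 rose less (0.96) than replicates 2 and 3 (2.03 and 1.95), which gave 3.13-fold (log2 ratio 1.65 ± 0.60, SD, n = 3; limma adjusted p = 0.0056). ZNF638, a nuclear RNA- and DNA-binding protein that in human cells brings the HUSH silencing complex to foreign DNA, rose by 0.59 ± 0.20 on the log2 scale, a call lost without replicate 2.

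ZNF277, which in human cells binds the ribosomal protein uS5, fell. Its levels were 10.91, 11.40 and 10.92 at 0 h and 9.53, 9.20 and 9.75 at 6 h, with no overlap, a fall of 3.00-fold (log2 ratio -1.59 ± 0.54, SD, n = 3; limma adjusted p = 0.0050). ZNF346, which binds double-stranded RNA, and ZNF830, a splicing-associated protein, had log2 ratios of -0.63 ± 0.25 and -0.61 ± 0.06 and were called lower, and both calls were lost without replicate 2 or without replicate 3. ZNF326, ZNF207, ZNF451 and ZNF330 were not called, with log2 ratios between -0.32 and 0.06.

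Of 17 members on the array that bind chromatin or its regulators 11 were tested. Of these 4 fell (36.4%) and 1 rose (9.09%), and the median log2 ratio was -0.17. Over all genes tested 18.2% fell and 17.4% rose, and no difference from that share was tested.

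The gene that rose was ZNF462, a large vertebrate zinc finger protein linked to heterochromatin and development. Its levels were 9.99, 10.26 and 10.88 at 0 h and 11.71, 11.91 and 12.12 at 6 h. The groups were well apart, at 2.90-fold (log2 ratio 1.54 ± 0.26, SD, n = 3; limma adjusted p = 0.0020), and all 3 of its tested probes were called higher, at 0.91 to 1.80.

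ZNF292, a large nuclear zinc finger protein, had levels of 10.23, 9.42 and 9.70 at 0 h and of 8.69, 8.58 and 8.80 at 6 h. It fell without overlap, by 2.14-fold (log2 ratio -1.10 ± 0.39, SD, n = 3; limma adjusted p = 0.0074). ZNF618, a partner of the chromatin protein UHRF2, fell in each replicate, by 1.10, 1.42 and 0.76 on the log2 scale. Its levels of 10.24, 9.08 and 9.46 at 0 h and of 9.14, 7.66 and 8.70 at 6 h overlapped, since replicate 1 was brighter at both times.

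ZNF280C fell by 0.97 ± 0.22 on the log2 scale, from 9.17, 8.97 and 8.79 at 0 h to 8.04, 7.91 and 8.08 at 6 h, without overlap. Its paralogue ZNF280D, outside this list, fell by 0.94 ± 0.17 on its brightest probe, while its other probe read -0.00. ZNF592, which associates with the chromatin reader ZMYND8, fell by 0.59 ± 0.33, a call lost without replicate 2 or without replicate 3. ZNF644, which targets the histone methyltransferases G9a and GLP, had -1.41, -0.17 and -0.49 in the 3 replicates and was not called (limma adjusted p = 0.085). ZNF217, a partner of the CoREST corepressor, was not tested: its probe exceeded background on 0 arrays before maturation and on 5 after 6 h, with a log2 ratio of 0.49.

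Of 10 promoter-binding activators on the array 8 were tested, 1 rose and 1 fell (12.5% each, against 17.4% and 18.2% of all genes), and the median log2 ratio was -0.10. ZNF281, which binds GC-rich promoters, went from 11.25, 11.30 and 11.26 at 0 h to 11.84, 11.83 and 11.90 at 6 h. Its groups did not overlap and its other probe read 0.55 (log2 ratio 0.59 ± 0.06, SD, n = 3; limma adjusted p = 0.011), and the call was lost without replicate 2 or without replicate 3. ZNF362 went from 9.41, 9.46 and 9.43 at 0 h to 8.53, 7.92 and 8.67 at 6 h, also without overlap (log2 ratio -1.06 ± 0.42, SD, n = 3; limma adjusted p = 0.0093). Its close paralogue ZNF384 was not called, at -0.02. ZNF148, which binds GC-rich promoters as ZNF281 does, was not called either, at -0.29.

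Of 15 members linked to signalling and development 7 were tested, 1 fell (14.3%, against 18.2% of all genes) and none rose, with a median log2 ratio of -0.07. ZNF750, a regulator of epidermal differentiation, fell by 0.74 ± 0.34 (SD, n = 3) on the log2 scale. ZNF750 was above background on all arrays at only 1 of the time points, 0 h, and its call was lost without replicate 2 or without replicate 3. ZNF521, a partner of early B-cell factors, varied most of all members between replicates, at -1.14, -1.32 and 0.14 (SD 0.80), and was not called. ZNF24, a SCAN-domain repressor, also changed sign, at -0.69, 0.13 and 0.44.

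Only 9 members had an SD between replicates above 0.5 on the log2 scale, and 2 of them were called, ZNF385B and ZNF277. Oocyte markers, by comparison, had median log2 ratios of 1.57, 0.45 and -1.15 in replicates 1 to 3, against -0.06, -0.11 and -0.11 for the members. Of the 12 oocyte markers 8 passed the background filter only through 6 h, so the filter favoured markers with signal at 6 h.

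**Figure D4:**
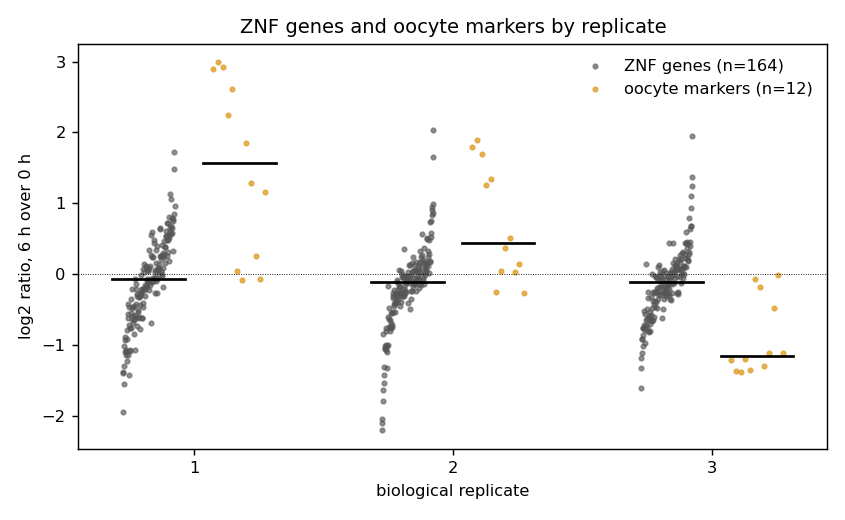
The log2 ratio of 6 h over 0 h (y axis) of each ZNF gene (grey, 164 genes) and each tested oocyte marker (orange, 12 genes) in the 3 biological replicates (x axis), with the median as a bar. The ZNF medians lie between -0.11 and -0.06, and the oocyte medians are 1.57, 0.45 and -1.15.

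The plot by replicate sets the spread of single members beside that of the oocyte markers. A median over members that go both ways does not show how single members relate to oocyte RNA, and this was not tested.

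Zinc finger families named otherwise were examined beside the members, and their shares stand against 18.2% lower and 17.4% higher over all genes. Genes of these families with a ZNF symbol on the array stayed among the members and are not counted in these shares. Among them, ZSCAN25, ZSCAN26, ZSCAN31, ZKSCAN8 and ZFP69 were tested and not called. Of 7 ZFP genes tested 4 fell (57.1%) and none rose, with a median log2 ratio of -0.45. ZFP36, which encodes tristetraprolin, an RNA-binding protein of another zinc finger class that destabilises mRNAs, fell by 2.28 ± 0.93, and ZFP37 by 0.90 ± 0.37, and both calls were lost without replicate 2. Of 7 ZSCAN genes 3 fell (42.9%) and none rose, at a median of -0.30, and the lowest was ZSCAN21 at -0.67, a call lost without replicate 2 or without replicate 3. Of 3 ZKSCAN genes 2 fell, ZKSCAN1 at -1.11 and ZKSCAN2 at -0.87, while ZKSCAN5 at 0.25 was not called. ZKSCAN1 passed the background filter only through 0 h, with 4 arrays above background at 6 h, and its call was lost without replicate 2 or without replicate 3. The call of ZKSCAN2 was lost without replicate 2.

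The BTB-domain zinc finger genes showed calls in both directions. Of 17 ZBTB genes tested 2 rose and 2 fell (11.8% each), at a median of 0.04. ZBTB18, not called, and ZBTB21, called lower, have ZNF symbols on the array and were left out of these counts. ZBTB4, which binds methylated DNA, fell by 1.06 ± 0.29 on the log2 scale, and ZBTB38, another methyl-DNA binder, rose by 0.79 ± 0.31 (SD, n = 3). The call of ZBTB38 was lost without replicate 2.

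The corepressors that KRAB proteins recruit were called in both directions. Of 25 on the array 22 were tested, 5 rose (22.7%) and 2 fell (9.09%), against 17.4% and 18.2% of all genes tested. The share called in either direction, 31.8%, was near the 35.6% of all genes, and the median log2 ratio was -0.00. TRIM28, the direct KRAB partner, had log2 ratios of -0.21, -0.64 and -0.38 and was not called (limma adjusted p = 0.057). SETDB1, the histone H3 lysine methyltransferase it recruits, rose by 0.50 ± 0.06. Whether the call of SETDB1 held without each replicate was not examined.

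CHD4, the remodelling ATPase of NuRD, rose by 1.07 ± 0.30 on the log2 scale, at 1.41, 0.86 and 0.95 in the 3 replicates. DAXX, a histone chaperone, rose by 1.26 ± 0.41, and SMARCAD1, a chromatin remodeller that binds TRIM28, fell by 0.66 ± 0.25, and both calls were lost without replicate 2. The HP1 genes split: CBX1 rose by 0.58 ± 0.14 (a call lost without replicate 2 or without replicate 3), CBX5 fell by 0.67 ± 0.32, and CBX3 was not called at -0.02. Whether the call of CBX5 held without each replicate was not examined, and its other tested probe is not given here.

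**Figure D5:**
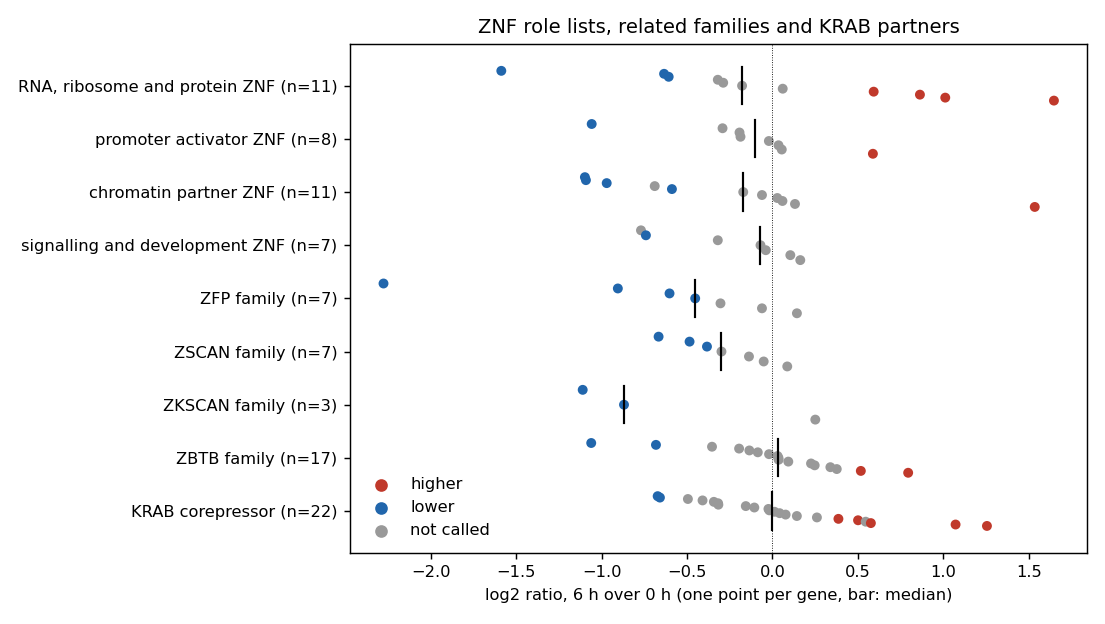
The log2 ratio of 6 h over 0 h (x axis) of each tested gene in 4 ZNF role lists, 4 related families and the KRAB corepressor list (rows), coloured by call, with the median of each list as a bar. The ZFP, ZSCAN and ZKSCAN families have calls below 0 only, and the RNA, ribosome and protein list has 4 genes called higher and 3 called lower. Family genes with a ZNF symbol on the array are not in the family rows.

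The plot by list shows medians between -0.18 and -0.07 for the 4 ZNF role lists. No difference between lists was tested.

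Gene order in the RefSeq table placed all 164 tested members, and 24 pairs lay directly beside each other among protein-coding genes. In 11 of these pairs both members had the same sign, and in 1 pair both were called, ZNF568 and ZNF829, which fell by 0.69 and 0.84 on the log2 scale. With at most 3 other genes between members, 48 genes lay in 11 clusters of 3 or more.

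The largest cluster held 13 tested members, of which 5 fell (ZNF567, ZNF382, ZNF568, ZNF829 and ZNF570) and none rose. Over all tested members 22.6% fell and 9.76% rose, and over all genes 18.2% and 17.4%. The cluster's median log2 ratio was -0.12. In it 10 of the 13 lay below 0, as did 58.5% of all tested members and 52% of all genes. No difference from these shares was tested. Of those 5 calls, that of ZNF829 held without each replicate and the other 4 were lost without at least 1. ZNF565 and ZNF527 were not called, at 0.02 and 0.03. ZNF260 was not called on its brightest probe, at 0.04, but its other tested probe read -0.37 and was called lower when p-values were adjusted over probes (limma adjusted p = 0.041). In a cluster of 6, ZNF226 fell by 0.69, a call lost without replicate 2, and its direct neighbours ZNF45 and ZNF227 were at 0.02 and 0.21, not called. These genes were chosen after their values were seen. Neighbouring ZNF genes are often near-copies, and how far a probe reads its paralogues was not tested.

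For 31 members more than 1 probe was tested. In 23 of them all probes had the same sign, in none were probes called in opposite directions, and the median spread between probes was 0.21 on the log2 scale. Of the 14 called members among them 11 had probes of 1 sign. With p-values adjusted over probes, every tested probe was called in ZNF189, CHAMP1, ZNF79, ZNF281 and ZNF462. In the rest of the 14 only 1 probe was called. ZNF583, like ZNF260, was not called on its brightest probe, at 0.10. The other tested probe of ZNF583 read 0.51 and was called higher when p-values were adjusted over probes (limma adjusted p = 0.017).

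Of the 53 called members 17 kept their call in all 18 alternatives, which include leaving out each replicate in turn. The 4 that rose were ZNF385B, ZNF462, ZNF74 and ZNF593. The 13 that fell were ZNF189, ZNF32, ZNF277, ZNF358, ZNF75D, ZNF292, ZNF618, ZNF672, ZNF362, ZNF572, ZNF280C, ZNF280D and ZNF829. The other 36 lost the call without at least 1 replicate.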

How the data were processed

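Per the file headers, the authors deposited each spot's raw scanner intensity, its local background and an ignore flag. The authors also deposited a matrix of normalised log2 ratios of Cy5 over Cy3, for which no source used here gives the method. Both time points of a replicate share an array, which pairs them. Spot means less median local background were corrected with normexp (offset 50, fitted on spots not ignored) and normalised by loess in limma 3.58.1 (R 4.3.3). Ratios were turned to 6 h over 0 h, and dye swaps were averaged (n = 3). Background was the mean + 2 SD of 153 negative control spots per channel. A gene is its brightest tested probe. Levels are log2 intensities, scaled by Aquantile after loess. Ratios were tested against 0 with lmFit and eBayes, two-sided, over 9217 genes. The p-values reflect only how far these replicates differ, with the spread of each gene moderated over all tested genes. The procedure was tested on simulated data.

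Of the array's symbols 14114 were current in RefSeq (ARS-UCD2.0), 982 were updated through synonyms and 133 were kept. Members and lists were chosen with earlier results of these data known. Named genes were the 12 highest and the 12 lowest called members with 1 sign on all arrays, called members of the role lists and up to 4 genes per comparison list by smallest p; other names were chosen after their values were seen. Alternatives changed background correction, normalisation, filter, probe choice, membership, dye orientation and replicates. Protein features were not analysed here.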

Additional observations from a re-analysis of the deposited data

How the results depend on the processing

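In all 18 alternatives the share of members called lower exceeded that of all genes and the share called higher was below it. Shares of members ran from 8.38% to 26.8% lower and from 2.4% to 12.2% higher. Leaving out 1 replicate in turn gave 14 to 36 members lower, 4 to 12 higher, 1183 to 3308 genes called in all and a median of the members from -0.081 to -0.043. The lowest counts were without replicate 2. The median of the members was -0.12 in the authors' deposited matrix and in the series' value table, which hold the same values, and -0.021 with no filter on dim probes, which adds dim genes. With the swapped arrays as a replicate block, 44 members were lower and 18 higher, and with a dye term added 41 and 20. The mean in place of the median local background, chosen after the data were seen, gave 37 lower and 14 higher. Of 842 values of 47 named genes under the alternatives, 765 kept their direction and side of the threshold, 74 lost the call, 1 gained it and 2 changed sign: ZNF354A read -0.17 on the probe most often above background, and ZKSCAN5, not called, ran from -0.0010 without replicate 1 to 0.39 without replicate 2. The cause was not tested. Named genes were picked for a call or a small p, so the number of values kept was partly fixed by that choice. Of all 53 called members, 36 lost the call without at least 1 replicate. Only 3 replicates, and probes close to background, limit what could be called: 93 members were not tested.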
